A study of Mus musculus with 16 samples.

Results

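Ifit1, Ifit2, Ifit3, Rsad2, Cmpk2, Isg15, Irf7, Irf9, Oas1a and Oas2 are 10 antiviral genes of the type I interferon response. They were picked by name from the 3071 genes in the authors' deposited comparison of beta-glucan with control macrophages. That table holds only genes for which the authors' test gave an adjusted p below 0.05, so the difference between the groups chose these 10 genes, and it is given below as a description and not as a test. Of the 10 genes 9 were listed as higher after beta-glucan and 1, Oas2, as lower.

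The RNA came from macrophages grown out of the bone marrow of aged C57BL/6 mice, whose exact age the labels do not give. M-CSF (10 ng/mL), which drives marrow cells to become macrophages, was present during their culture, and the cells then received either PBS (control, 8 libraries) or beta-glucan at 10 µg/mL (8 libraries) for 24 hours. Beta-glucan is a cell wall polysaccharide, here from the yeast Candida albicans, and is the usual agent in studies of trained immunity, the lasting change that a first stimulus leaves in innate immune cells. All cells then rested for 7 days with fresh medium, so the RNA was taken a week after the stimulus ended. The 16 libraries carry the numbers 2, 3, 5, 7, 9, 10, 12 and 13 in the control group and 5, 6, 7, 8, 9, 10, 12 and 13 in the beta-glucan group, and no label says which came from separate mice or cultures. The p-values given below therefore measure the spread between these libraries, which may be technical.

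Type I interferons are secreted when a cell senses viral nucleic acid, or other microbial signals, through Toll-like receptors and cytosolic sensors. They bind a receptor made of Ifnar1 and Ifnar2, whose kinases Jak1 and Tyk2 pass the signal on to transcription factors. Irf9 is the DNA-binding part of the resulting complex, ISGF3, which binds interferon-stimulated response elements (ISRE) in front of many target genes, and Irf7, itself such a target, drives further interferon production. Macrophages keep a low, constant level of this programme without infection.

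The 10 genes lie at 6 places in the genome (build mm10, coordinates of the deposited table). The Ifit genes, whose products bind foreign RNA and block its translation, form a cluster on chromosome 19, with Ifit2 at 34550694 to 34576419, Ifit3 at 34583531 to 34588731 and Ifit1 at 34640871 to 34650009, all on the plus strand. Ifit2 and Ifit3 are 7111 bp apart, and Ifit3 and Ifit1 are 52139 bp apart. Rsad2, which encodes viperin, the enzyme that makes a chain-terminating nucleotide, lies on the minus strand of chromosome 12 at 26442746 to 26456452. Cmpk2, a mitochondrial nucleotide kinase whose product supplies the viperin reaction, starts 12.8 kb away in the opposite direction, at 26469204 to 26479837. The 2',5'-oligoadenylate synthetase genes, whose products activate RNase L on double-stranded RNA, share a cluster on the minus strand of chromosome 5, with Oas2 at 120730333 to 120749853 and Oas1a at 120896256 to 120907521. Isg15, a ubiquitin-like protein that is joined to other proteins, is on chromosome 4 (156199424 to 156200818, minus strand). The transcription factor genes are Irf7 on chromosome 7 (141262706 to 141266481, minus strand) and Irf9 on chromosome 14 (55603571 to 55610030, plus strand).

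The promoter windows are shown so that the letters of the response element can be looked for directly. RefSeq windows (GRCm38.p6, 250 bases before to 50 after each start) were at hand for 9 of the 10 genes, Oas2 being the exception. They were searched on both strands for an ISRE core, GAAANNGAAA or its reverse complement TTTCNNTTTC, where N is any base. The core was present in the windows of 5 of the 9 genes, and these are printed 5′ to 3′ on the gene's own strand, with the matches in capitals.
Isg15 (chr4:156200769-156201068, minus strand): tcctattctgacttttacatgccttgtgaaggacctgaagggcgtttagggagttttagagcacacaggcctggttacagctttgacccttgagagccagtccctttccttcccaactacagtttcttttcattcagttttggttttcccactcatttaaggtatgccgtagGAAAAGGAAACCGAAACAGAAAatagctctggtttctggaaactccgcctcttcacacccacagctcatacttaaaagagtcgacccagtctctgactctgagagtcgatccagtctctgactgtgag
Oas1a (chr5:120907476-120907775, minus strand): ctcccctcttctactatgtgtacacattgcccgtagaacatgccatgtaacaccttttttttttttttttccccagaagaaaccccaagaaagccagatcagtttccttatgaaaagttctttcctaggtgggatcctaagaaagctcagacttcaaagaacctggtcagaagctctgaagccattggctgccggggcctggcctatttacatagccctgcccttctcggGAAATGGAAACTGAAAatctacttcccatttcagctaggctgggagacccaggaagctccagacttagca
Ifit3 (chr19:34583279-34583578, plus strand): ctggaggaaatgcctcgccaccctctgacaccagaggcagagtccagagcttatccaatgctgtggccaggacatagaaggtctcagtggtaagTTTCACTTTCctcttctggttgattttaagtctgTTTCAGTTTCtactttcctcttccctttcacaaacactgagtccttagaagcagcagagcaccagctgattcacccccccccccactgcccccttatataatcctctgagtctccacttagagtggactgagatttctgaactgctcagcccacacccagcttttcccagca
Ifit1 (chr19:34640639-34640938, plus strand): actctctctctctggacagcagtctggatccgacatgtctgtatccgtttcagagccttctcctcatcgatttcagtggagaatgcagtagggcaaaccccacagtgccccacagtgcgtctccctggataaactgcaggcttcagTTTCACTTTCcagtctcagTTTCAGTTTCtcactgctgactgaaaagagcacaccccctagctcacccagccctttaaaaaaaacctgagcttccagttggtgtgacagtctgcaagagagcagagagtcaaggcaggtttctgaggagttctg
Rsad2 (chr12:26456403-26456702, minus strand): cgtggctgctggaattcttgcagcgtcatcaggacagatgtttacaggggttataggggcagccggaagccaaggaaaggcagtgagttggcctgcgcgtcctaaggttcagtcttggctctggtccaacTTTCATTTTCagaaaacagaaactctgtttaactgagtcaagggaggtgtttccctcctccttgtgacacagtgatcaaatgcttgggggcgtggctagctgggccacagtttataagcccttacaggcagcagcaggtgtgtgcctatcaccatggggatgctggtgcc
Isg15 held 3 overlapping copies, between bases -78 and -57 counted from the start, and Oas1a held 2 overlapping copies between -20 and -5. Ifit3 (-156 to -147 and -122 to -113) and Ifit1 (-104 to -95 and -85 to -76) each had 2 separate copies on the reverse strand, with the same letters in both genes, TTTCACTTTC farther from the start and TTTCAGTTTC nearer to it. Rsad2 had 1 copy, at -120 to -111. The core was not found in the windows of Cmpk2, Irf7, Irf9 or Ifit2, which says only that these letters are not within those bases. Counted by window, 5 of the 11 windows of the 9 genes held the core. Among all 32851 RefSeq windows of this length 3.44% held the core, and among the windows of listed genes 3.34% did. The gamma-activated site TTCNNNGAA, which reads the same on both strands, was found in Oas1a (-98 to -90) and in the first of the windows of Ifit2 (-241 to -233), where it overlapped no ISRE core, and in 8.30% of all windows. A match is a description of the letters and no evidence of binding.

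Depth was similar across libraries. The deposited size factors ran from 0.864 to 1.16, which corresponds to 15492864 to 20738976 effective reads per library, and 4382665 to 5600727 reads fell on listed genes. The 10 genes themselves had between 47 reads (Isg15) and 1311 reads (Oas1a) in a library. Some controls stood apart from the others. Controls 12 and 13 had 61.5 and 74.4 normalized counts of the monocyte-lineage gene F13a1, while the other controls had 312 to 520.4 and the beta-glucan libraries 9.90 to 39.5, and they had 677 and 387 of Cx3cr1 against 2733 to 6026 in the other controls. Controls 2 and 3 had 947 and 652 normalized counts of Socs3, an inhibitor of cytokine signalling, against 78.7 to 192 in the other controls. Results that rest on these 4 libraries are given with and without them.

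In the deposited test 1079 of 17130 genes were listed as higher (6.30%) and 1992 as lower (11.6%), so the 9 higher and 1 lower of the 10 genes stand against a list that is mostly lower. This contrast chose the genes and the shares support nothing about them. The median of the authors' log2 fold change was 0.55 over the 10 genes and -0.47 over all listed genes. The authors' adjusted p ran from 0.000574 for Ifit2 to 0.0460 for Irf9, which was just inside the threshold, and values of genes just outside it were not analysed here.

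Across all libraries together no gene of the set separated the groups fully. The lowest beta-glucan value of each of the 9 higher genes lay below the highest control value. Of all 3071 listed genes 231 (7.52%) had groups that did not overlap. With a share this low, 0 of 10 genes does not set these genes apart from the list. By mean FPKM, which corrects for gene length, Oas1a was the most abundant (20.3 in control and 29.6 after beta-glucan) and Cmpk2 the least abundant in control (2.29, and 4.22 after beta-glucan). Between them in control lay Ifit3 (8.11), Irf9 (7.69), Isg15 (6.37), Oas2 (5.81), Rsad2 (5.56), Ifit2 (4.99), Irf7 (3.59) and Ifit1 (3.35), and neighbours in this order differed by less than the SD of either except Oas1a and Ifit3, Ifit2 and Irf7, and Ifit1 and Cmpk2. After beta-glucan Oas2 was the least abundant of all (3.40).

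**Figure D1:**
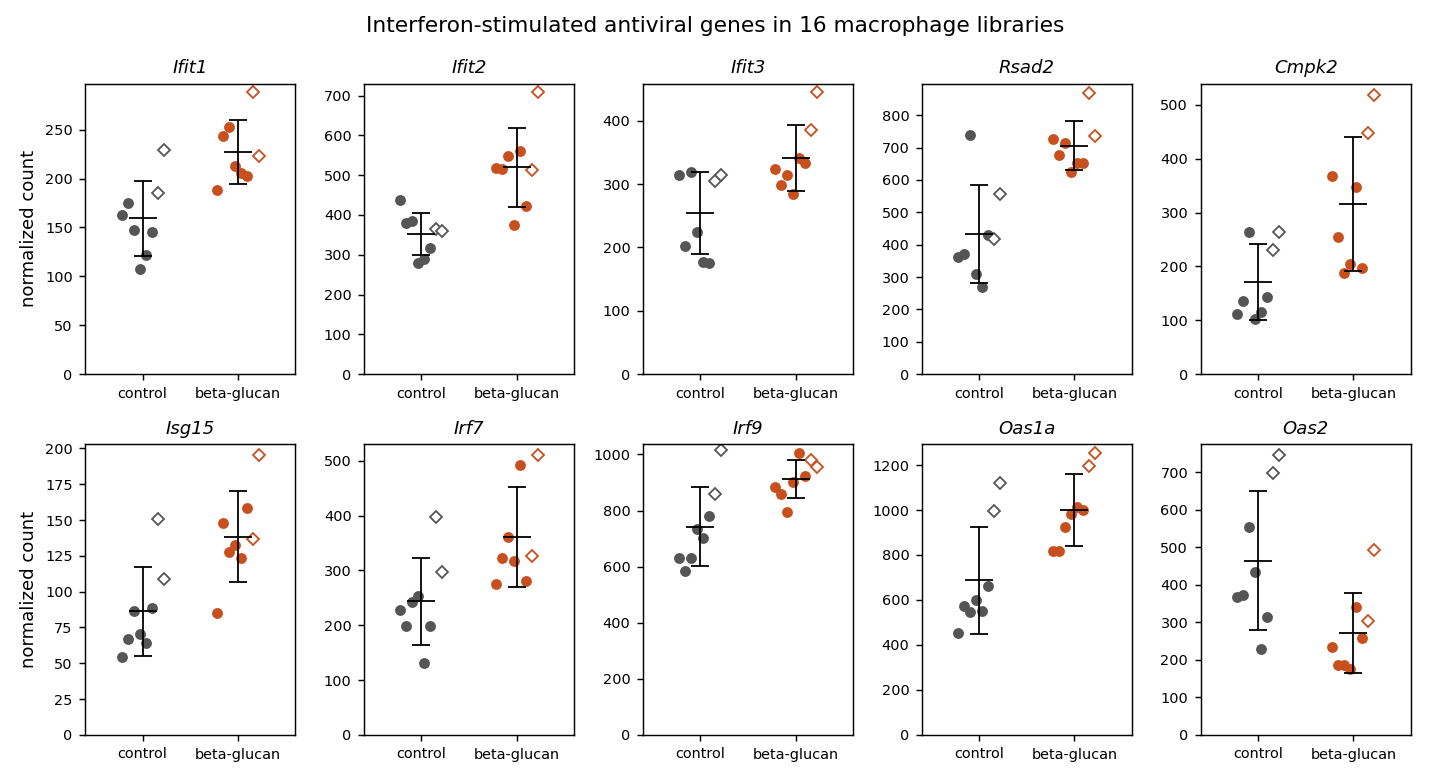
Normalized counts (y axis, linear, from 0) of the 10 interferon-stimulated antiviral genes in 8 control and 8 beta-glucan libraries. Each point is a library, open diamonds are libraries 12 and 13, and the horizontal lines show mean ± SD. The beta-glucan mean is above the control mean in all panels except Oas2, and the groups overlap in all 10.

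Among the inducers and regulators, Irf7 had 131, 236 and 398 normalized counts (lowest, median and highest) in control and 276, 324 and 511 in beta-glucan libraries. Its mean went from 243 ± 78.8 to 361 ± 91.0 (SD, n = 8), and 6 of the 8 controls lay below every beta-glucan library. The exceptions were controls 12 (398) and 13 (297). Irf9, the DNA-binding subunit of ISGF3, had 584, 719 and 1015 in control and 796, 912 and 1007 after beta-glucan. Its edgeR log2 fold change was 0.30 ± 0.11 (SE), the smallest of the set with all libraries but not with the gene length trend removed (0.34), and its highest value of all was in control 13. Irf9 was the more abundant of the pair in every library, with Irf7 at 0.267 to 0.661 of its FPKM in control and 0.432 to 0.762 after beta-glucan, ranges that overlap. Part of Irf7 overlaps Phrf1 on the other strand and part of Irf9 overlaps Rnf31 on the same strand, and the strand setting of the counting is not given in the sources used here, so reads in those stretches cannot be assigned with certainty.

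All 3 genes of the Ifit cluster had a higher mean after beta-glucan. Ifit2 had 279, 362 and 438 normalized counts in control and 375, 517 and 708 after beta-glucan, and all beta-glucan libraries except 8 (375) and 10 (423) exceeded every control. Its edgeR log2 fold change was 0.56 ± 0.13, and its authors' adjusted p was the lowest of the set. Ifit1 had 107, 155 and 229 in control and 188, 218 and 288 after beta-glucan, and 7 of 8 controls lay below every beta-glucan library, control 13 (229) being the exception. Its log2 fold change was 0.51 ± 0.15. Ifit3 had 175, 265 and 319 in control and 285, 329 and 445 after beta-glucan, a log2 fold change of 0.42 ± 0.15. Of its controls 3, 7, 9 and 10 had 175 to 224 and controls 2, 5, 12 and 13 had 305 to 319, within the range of the beta-glucan libraries. Near-identical paralogs lie beside Ifit1 and Ifit3 in the mouse genome, and reads they share may have been split or dropped in the counting, so the levels of both are uncertain. The FPKM ratio of Ifit2 to Ifit1 was 1.06 to 1.81 in control and 1.19 to 2.15 after beta-glucan, so the balance within the cluster did not separate the groups.

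With all libraries Cmpk2 and Rsad2 had the largest positive log2 fold changes of the set, whereas without controls 12 and 13 Isg15 (0.94), Oas1a (0.83) and Irf7 (0.79) exceeded Rsad2 (0.77). Rsad2 had 268, 394 and 739.6 normalized counts in control and 623, 694 and 867 after beta-glucan, a log2 fold change of 0.71 ± 0.16. The beta-glucan libraries were tight (SD 76.6) and the controls wide (SD 152), with 7 of 8 controls below every beta-glucan library and control 5 (739.6) above 7 of the 8. Cmpk2 had 103, 139.5 and 265 in control and 188, 300.4 and 518 after beta-glucan, a log2 fold change of 0.88 ± 0.26. Here the spread was wide in both groups. Beta-glucan libraries 12 (447) and 13 (518) were highest, and libraries 7 (188), 10 (197) and 8 (204) lay below controls 5, 12 and 13 (229.5 to 265). The FPKM ratio of Rsad2 to Cmpk2 was 1.75 to 3.13 in control and 1.36 to 3.65 after beta-glucan and did not separate the groups.

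Isg15 had 54.4, 78.6 and 150.4 normalized counts in control and 84.9, 135 and 196 after beta-glucan, a log2 fold change of 0.68 ± 0.21. Control 12 was the highest control, above 6 of the 8 beta-glucan libraries, and beta-glucan 5 (84.9) was at the level of the middle controls. It is the shortest and least counted of the set.

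The Oas genes went in opposite directions. Oas1a had 454, 587 and 1118 normalized counts in control and 816, 989 and 1252 after beta-glucan, a log2 fold change of 0.54 ± 0.17. Only controls 12 (996) and 13 (1118) reached the beta-glucan range, and the other 6 lay between 454 and 662. Oas2 had 228, 404 and 745 in control and 176, 246 and 492 after beta-glucan, a log2 fold change of -0.77 ± 0.25. Controls 12 (696) and 13 (745) were again the highest, and beta-glucan 6, 7 and 8 (176 to 186) were below every control. Oas1a has close paralogs in the same cluster, and part of Oas2 overlaps a gene model on the other strand, so both levels carry that uncertainty.

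The ratio of the Oas genes separated the groups where neither gene did. The FPKM ratio of Oas1a to Oas2 was 2.32, 3.46 and 5.70 (lowest, median and highest) in control and 6.01, 9.21 and 13.2 after beta-glucan, so every beta-glucan library had more Oas1a per Oas2 than every control. Controls 12 and 13, high in both genes, had ratios of 3.38 and 3.55, close to the control median. This ratio was chosen after its values were seen, and both genes had been listed for opposite differences, so no test is attached to it. How often ratios of other genes listed in opposite directions separate the groups was not examined. The ratio was not recomputed with the gene length trend removed. With that trend removed the edgeR log2 fold change of Oas1a went from 0.54 to 0.26 and that of Oas2 from -0.77 to -0.81. The ratios of the Rsad2 and Cmpk2, Ifit2 and Ifit1, and Irf7 and Irf9 pairs overlapped between groups, as given above.

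**Figure D2:**
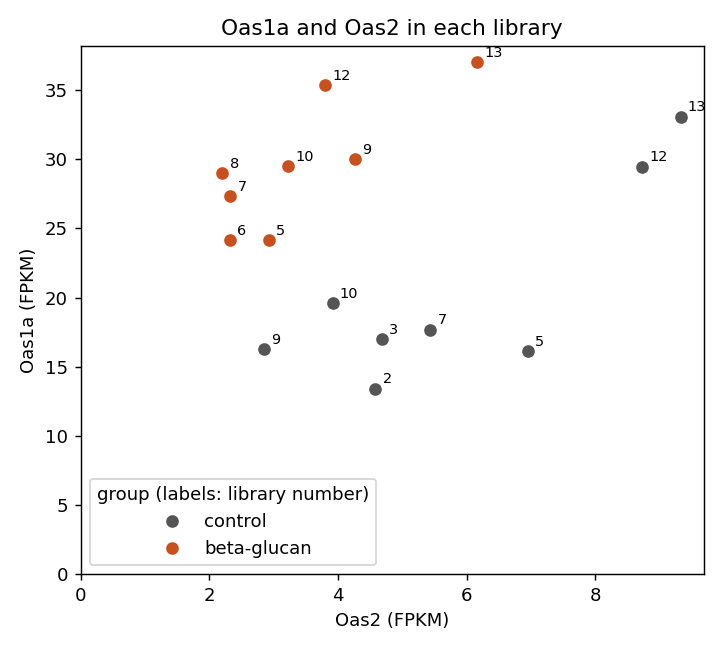
Oas1a against Oas2 (both in FPKM, linear axes from 0) in 16 libraries, with each point labelled by its library number. The groups overlap on each axis alone. The beta-glucan libraries lie at Oas1a to Oas2 ratios of 6.01 to 13.2 against 2.32 to 5.70 in control, and controls 12 and 13 are high on both axes.

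Which library was highest or lowest differed between genes. Beta-glucan 13 was the highest library of its group for 7 of the 10 genes (Ifit2, Ifit3, Cmpk2, Isg15, Irf7, Oas1a and Oas2). Control 13 was the highest control for 5 (Ifit1, Cmpk2, Irf9, Oas1a and Oas2) and controls 12 (Isg15 and Irf7) and 5 (Ifit3 and Rsad2) for 2 each. At the low end, beta-glucan 8 was lowest for 4 genes (Ifit2, Ifit3, Rsad2 and Oas2), and beta-glucan 5 and controls 7 and 9 were lowest for 3 each.

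**Figure D3:**
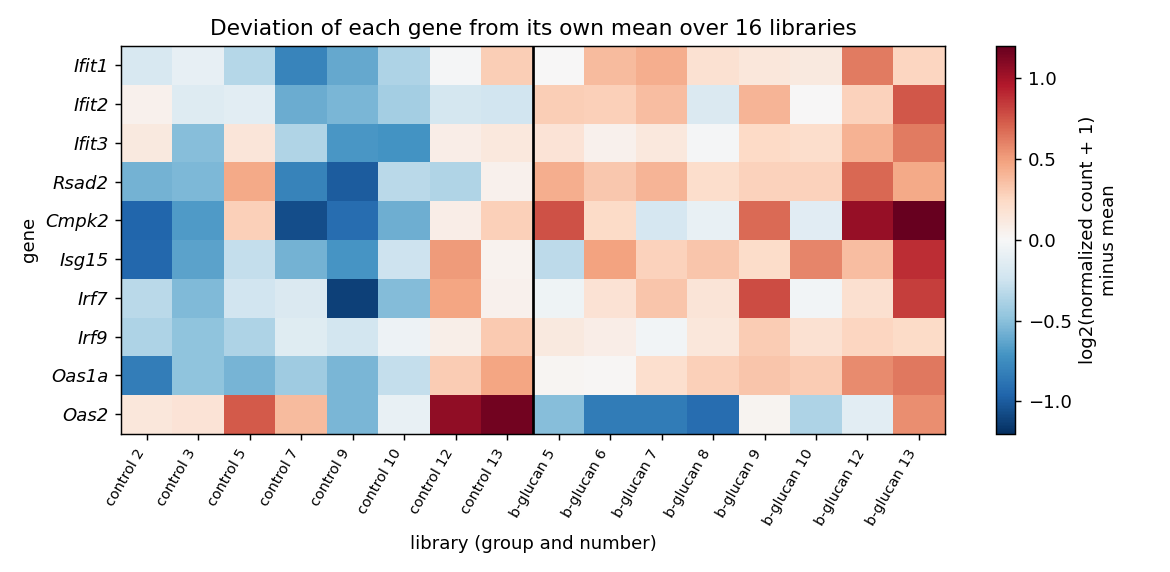
Deviation of each gene from its own mean over 16 libraries, in log2(normalized count + 1), for controls (left of the line) and beta-glucan libraries (right). Controls 2 to 10 are mostly below the mean for the 9 genes other than Oas2, control 13 is below it only for Ifit2 (-0.23), and control 12 is below it mainly for Rsad2 (-0.36) and Ifit2 (-0.21). Oas2 is highest in controls 12 and 13 and lowest in beta-glucan 8.

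How 2 genes varied together within a group was not part of the rule that chose the genes, so it could be examined. Each gene's own spread within the groups did enter, through the authors' test. For 8 pairs of genes set by shared locus or by regulator and target, correlations of log2(normalized count + 1) were computed over the 8 libraries of each group, which makes 16 relations. All 16 Pearson coefficients were positive. Only Rsad2 with Cmpk2 in control passed the Benjamini-Hochberg adjustment over the 16, with r = 0.866 (exact permutation test over pairings, two-sided, p = 0.00166, adjusted p = 0.0266). Spearman's rho for that pair was 0.881 (exact permutation p = 0.00724, adjusted p = 0.116), and r was 0.879 without the 2 libraries farthest from the Rsad2 median (controls 5 and 9). In the beta-glucan libraries the same pair had r = 0.642 and rho = 0.690 (exact permutation p = 0.0742 and 0.0694, adjusted p = 0.161 and 0.278), and the difference between groups was not tested. With 1 control left out r stayed between 0.837 and 0.925, but the relation passed only without control 10, and it passed neither without controls 2 and 3 (r = 0.876) nor without controls 12 and 13 (r = 0.947), when 6 controls remain.

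Oas1a and Oas2, which differed in opposite directions between the groups, had positive coefficients within each. The coefficient was 0.714 in control (rho 0.524, exact permutation p = 0.0475 and 0.197, adjusted p = 0.152 and 0.315) and 0.764 after beta-glucan (rho 0.810, exact permutation p = 0.0279 and 0.0218, adjusted p = 0.152 and 0.174), and none of these passed the adjustment. The control relation rests on controls 12 and 13, since r was -0.09 without them, and after beta-glucan r was 0.49 without libraries 6 and 13. Within the Ifit cluster, Ifit2 and Ifit3 had r = 0.680 in control (rho 0.571, exact permutation p = 0.0804 and 0.151, adjusted p = 0.161 and 0.315). After beta-glucan the coefficient was 0.734 (rho 0.524, exact permutation p = 0.0411 and 0.197, adjusted p = 0.152 and 0.315), and it was -0.07 without beta-glucan 8 and 13, so it rests on those libraries. Irf7 with Isg15 had r = 0.746 in control (rho 0.714, exact permutation p = 0.0369 and 0.0576, adjusted p = 0.152 and 0.278) and 0.473 without controls 9 and 12, and it was 0.198 without controls 12 and 13, so it rests on those libraries. The remaining relations had adjusted p from 0.161 to 0.859.

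With each group's mean removed, the pattern of each gene over the 16 libraries can be set beside the mean of the other 9, as a description with no test. Oas2 followed the others most closely (r = 0.890, and 0.849 without controls 12 and 13), although it was the gene that was lower after beta-glucan. Cmpk2 (0.796), Irf7 (0.758), Ifit3 and Oas1a (both 0.743) came next. Ifit2 followed least (0.454), and Irf9 went from 0.535 to 0.162 without controls 12 and 13. Libraries share depth and scaling, and this bears on all of these values. Of 2333 listed genes with a mean normalized count of at least 50, those whose within-group pattern was most like the mean of the 10 were Cavin1 (r = 0.875), Ldha (0.843), Mfge8 (0.841), Plin2 (0.838) and Arpin (0.821), against a median of -0.08 over all candidates. Cavin1 is a coat protein of caveolae, Ldha a subunit of lactate dehydrogenase, Mfge8 a bridge to apoptotic cells, Plin2 a lipid droplet protein and Arpin an inhibitor of the Arp2/3 complex. Without controls 12 and 13 these values fell to between 0.651 (Arpin) and 0.781 (Cavin1), and 10.0% of all candidates exceeded 0.5 with all libraries.

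The wider interferon system was read from 10 lists of genes, arranged by role. Their counts stand against the 6.30% of all tested genes that were listed as higher and the 11.6% listed as lower, and nothing particular to a list is read from them. None of 21 interferon genes, the ligands, was among the listed genes, so those 21 either did not pass or were not tested. Of 6 receptor genes 2 were listed, both lower: Ifnar1, a chain of the type I receptor, went from 4673 ± 799.9 to 3651 ± 298 normalized counts, and Ifngr1, of the interferon gamma receptor, from 3836 ± 687 to 2750 ± 173. Both passed in edgeR and without controls 12 and 13, but only Ifngr1 did without controls 2 and 3. Neither did with TMM scaling, which moved all genes up, and Ifnar1 then went from a log2 fold change of -0.36 to -0.16. The TMM factors came from the listed genes alone, which are mostly lower. This can distort them, so nothing is read from that loss. Of 16 genes of JAK-STAT signalling 3 were lower and 1 higher. The lower ones were the receptor kinase Tyk2 (edgeR log2 fold change -0.38), Stat3 (-0.29) and Socs3 (-1.39, and -0.29 without controls 2 and 3), and the higher one was the phosphatase Ptpn2 (0.27). In edgeR only Tyk2 passed, and not without controls 2 and 3, while all 3 lower genes passed without controls 12 and 13. Of 12 interferon regulatory factor genes Irf7 and Irf9 were higher and Irf2bp2, a corepressor that binds Irf2, was lower (-0.52, and -0.23 without controls 2 and 3). None of the 3 passed in edgeR with all libraries or without controls 2 and 3, and all 3 did without controls 12 and 13. Over all listed genes the calls went from 1882 to 2296 without controls 12 and 13 and to 629 without controls 2 and 3. Nothing is therefore read from these gains and losses.

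Of 20 genes of nucleic acid sensing, upstream of interferon, 6 were listed and all 6 were lower. Tlr9, the endosomal receptor for unmethylated DNA, went from 390.0 ± 151 to 171 ± 31.2 normalized counts, and Tlr7, for single-stranded RNA, from 3340 ± 766 to 2213 ± 310.2. Their chaperone Unc93b1 had an edgeR log2 fold change of -0.38, the kinase Ikbke -0.44, Tlr8 -0.49 and Trim56 -0.49. In edgeR 4 of the 6 passed, and all 6 did without controls 12 and 13. The calls over all listed genes then rose from 1882 to 2296, so nothing is read from this gain. Without controls 2 and 3 only 1 passed, and the calls over all listed genes fell from 1882 to 629. With TMM scaling from the listed genes, which moved all genes up by a median of 0.19, 1 passed. The same limit of that scaling holds here. For Tlr9 controls 12 and 13 (175 and 234) lay at the level of the beta-glucan libraries (140 to 230.4), and the other controls lay between 360.2 and 678.

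Among effectors outside the 10 genes both directions occurred, given here as edgeR log2 fold changes. The 3 listed of the 6 Ifit genes and the 2 listed of the 13 Oas genes belong to the 10. Of 6 genes of Isg15 conjugation, Isg15 and its conjugating enzyme Ube2l6 were higher (0.59 for Ube2l6, and 1.07 without controls 12 and 13) and its activating enzyme Uba7 was lower, from 1155 ± 168 to 727 ± 115 normalized counts. Of 52 other interferon-induced genes 9 were higher, Rsad2 and Cmpk2 among them, and 2 were lower. The other higher ones were Ifi205 (1.22), Slfn2 (0.88), Cd274 (0.62), Ifi211 (0.61), Ifi35 (0.44), Tor3a (0.41) and Slfn5 (0.41), and the lower ones were the helicase Ddx60 (-0.72) and Ifitm1 (-1.38). In edgeR 9 of these 11 passed as higher and 1 as lower. The counts were 2 and 0 without controls 2 and 3, and 8 and 1 without controls 12 and 13. Ifi205 and Ifi211 belong to the DNA-binding PYHIN family, Slfn2 and Slfn5 to the Schlafen family, and Cd274 encodes the checkpoint ligand PD-L1. Of 21 genes typical of interferon gamma, the immunity-related GTPase Irgm1 was higher (0.47) and the guanylate-binding proteins Gbp8 (-1.20), Gbp7 (-0.93) and Gbp9 (-0.56) were lower. All 4 passed in edgeR and without controls 12 and 13, but without controls 2 and 3 only Irgm1 and Gbp8 did, and Gbp7 went to -0.59.

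**Figure D4:**
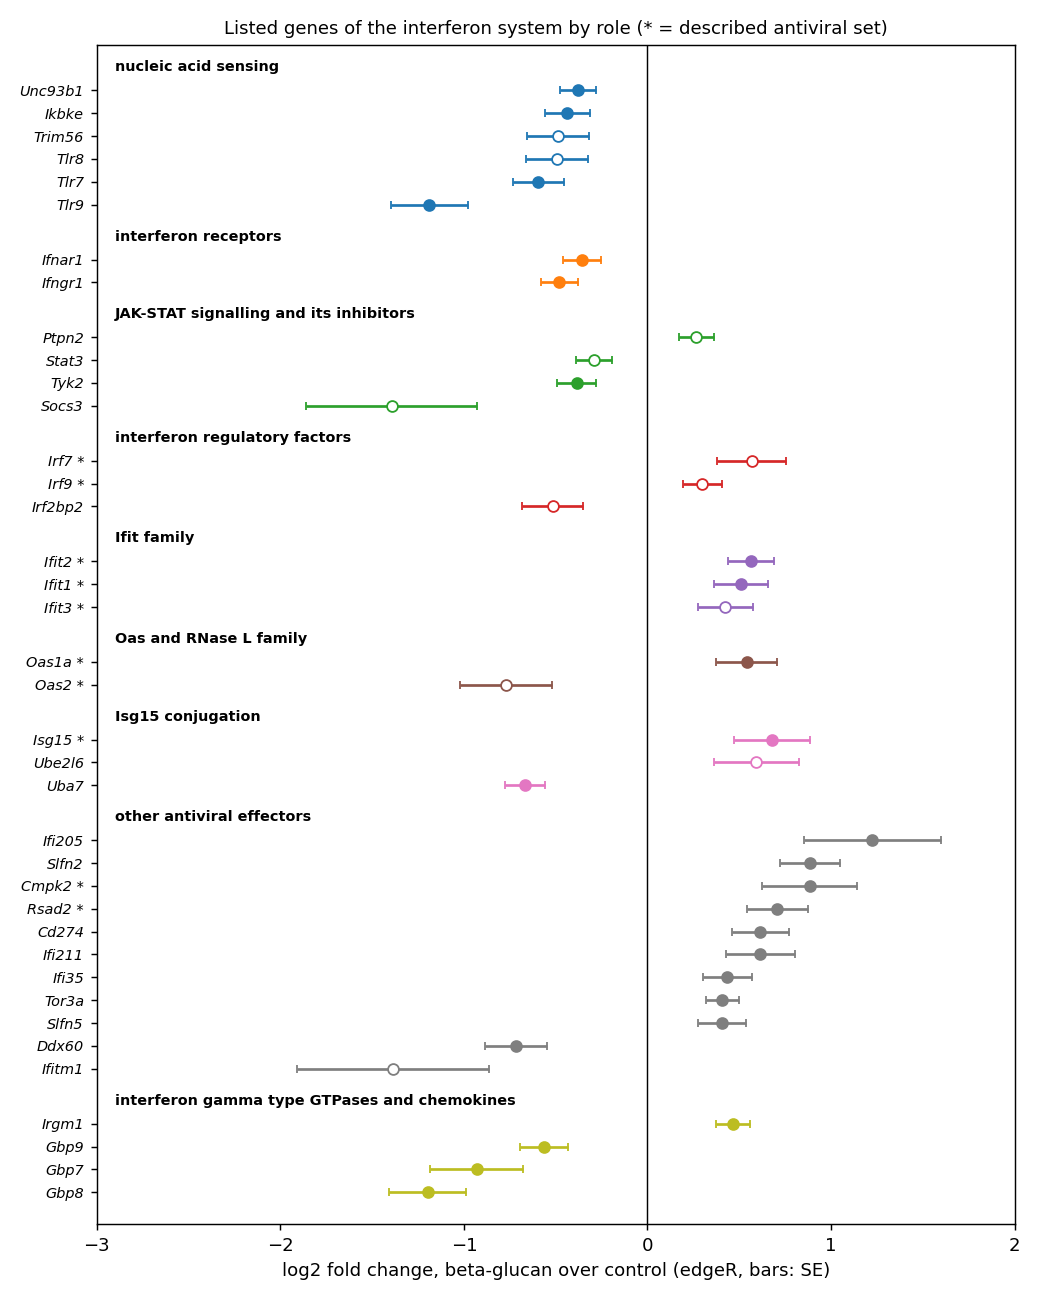
Log2 fold change of beta-glucan over control (x axis, edgeR, bars are SE, n = 8 per group) for every listed gene of the 10 interferon lists, grouped by role. Filled points passed an edgeR adjusted p of 0.05, open points did not, and asterisks mark the 10 antiviral genes. All listed sensors and receptors lie to the left of 0 and most effectors to the right.

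The authors' deposited enrichment tables place at least 1 of the 10 genes in 227 of 7402 gene ontology terms and 18 of 306 KEGG pathways. Of these 2 ontology terms passed an adjusted p of 0.05, nucleolar part (0.0153) and fibrillar center (0.0395), both through Rsad2, and 0 KEGG pathways did, the lowest being Epstein-Barr virus infection (0.0943). In the authors' deposited table the term defense response to virus held 43 listed genes, 16 higher and 27 lower, with 8 of the 10 among them. That is 21.5% of the term against 17.4% of all genes with process terms, and its adjusted p was 0.525. The authors' deposited table gave cellular response to interferon-alpha, which includes Ifit1, Ifit2 and Ifit3, 7 listed of 12 genes (58.3%, 3 higher and 4 lower, adjusted p 0.187). The authors' deposited table gave response to type I interferon 12 listed of 40 genes, 4 higher and 8 lower, with an adjusted p of 0.444. Cellular response to interferon-beta in the authors' deposited table had 7 listed genes (16.3%), all 7 higher, with an adjusted p of 0.919. These terms were chosen after their values were seen.

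Markers of macrophages and of other cell types also differed between the groups. Of 9 macrophage markers 5 were listed, with Adgre1, Csf1r, Itgam and Mertk lower and Cd14 higher after beta-glucan, and none was at 0 in any library. Their summed level was 85337 to 158632 normalized counts in control and 74529 to 84808 after beta-glucan. The sum rests mainly on Csf1r and Adgre1, and Cd14 went the other way, from 5456 ± 1536 to 7844 ± 1001. Csf1r was lowest in control 12 (46574) and highest in control 2 (101276). It was 67132 to 101276 without controls 12 and 13, 46574 to 69886 without controls 2 and 3, and 38483 to 48783 after beta-glucan. Of 7 markers of plasmacytoid dendritic cells, the main interferon producers in blood, only Ccr9 was listed, at 0 to 13.9 in control and 0 to 2.10 after beta-glucan, with 8 values at 0. Monocyte markers F13a1 and Cx3cr1, 2 of 6 listed, summed to 461 to 6435 in control and 381 to 1913 after beta-glucan. The low end in control rests on controls 12 and 13, with 677 and 387 of Cx3cr1. The other controls had 2733 to 6026 of Cx3cr1, above the beta-glucan range of 360.0 to 1879. The neutrophil gene Csf3r, 1 of 7, had 1629 to 2492 in control and 918 to 1430.0 after beta-glucan, and the B cell gene Ighm, 1 of 5, had 215 to 379.7 and 71.4 to 197. No listed gene was a marker of conventional dendritic cells (7), T and NK cells (8) or stromal cells (5). The part of these shifts in the interferon genes was not tested, and in bulk RNA fewer cells of a type and less RNA per cell cannot be told apart.

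An edgeR fit on the deposited counts, with the deposited size factors and p adjusted over 17130 genes, described how firmly the differences stood out from the spread between libraries. Of the 2738 listed genes with enough counts, 709 passed as higher (25.9%) and 1173 as lower (42.8%), all from a list already chosen for this difference. Of the 10 genes 6 passed, all higher (Ifit1, Ifit2, Rsad2, Cmpk2, Isg15 and Oas1a), and all 10 had an unadjusted p under 0.05. This contrast chose the genes, and nothing is read from the count. The count depended on single libraries in both groups, falling to 2 or 3 without control 2, 3, 5, 7, 9 or 10 or beta-glucan 7 or 12. Without controls 2 and 3 only Ifit2 passed, while without controls 12 and 13 all 9 higher genes did. The median log2 fold change of the 10 genes was then 0.72 against 0.55. The Oas2 difference was -0.48 without controls 12 and 13 against -0.77 with all libraries, and that of Oas1a was 0.83 against 0.54. Control 13 was the highest control for 5 of the 10 genes and control 12 for 2. Beta-glucan 12 and 13, the highest of their group for 2 and 7 genes, were kept. Removing high controls alone raises these differences and shrinks that of Oas2, so nothing is read from this direction.

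Ifit2 and Rsad2 passed in all 16 fits that left out 1 library. Ifit1 passed in 8 and no longer did without control 2, 5, 7, 9 or 10 or beta-glucan 6, 7 or 12. Cmpk2 passed in 7 and no longer did without control 2, 3, 7, 9 or 10 or beta-glucan 5, 9, 12 or 13. Isg15 passed in 4 (without control 12 or 13 or beta-glucan 5 or 9), and so did Oas1a (without control 12 or 13 or beta-glucan 5 or 6). Oas2 passed as lower in 3 (without control 9 or 10 or beta-glucan 13), Irf7 and Irf9 in 2 (without control 12 or 13), and Ifit3 in 0. Removing each library's trend with gene length moved 3 genes by more than 1.5 times. Ifit3 went from 0.42 to 0.11, Ifit1 from 0.51 to 0.27 and Oas1a from 0.54 to 0.26, while Isg15, the shortest, went from 0.68 to 0.52, and only Ifit2 and Rsad2 passed. TMM scaling from the listed genes moved the log2 fold changes of all genes up by a median of 0.19, and with it 66.2% of all calls were higher against 37.7%. The 10 genes then had a median of 0.71, and Oas2 was still lower (-0.61). The listed genes are mostly lower, which can distort scaling computed from them.

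**Figure D5:**
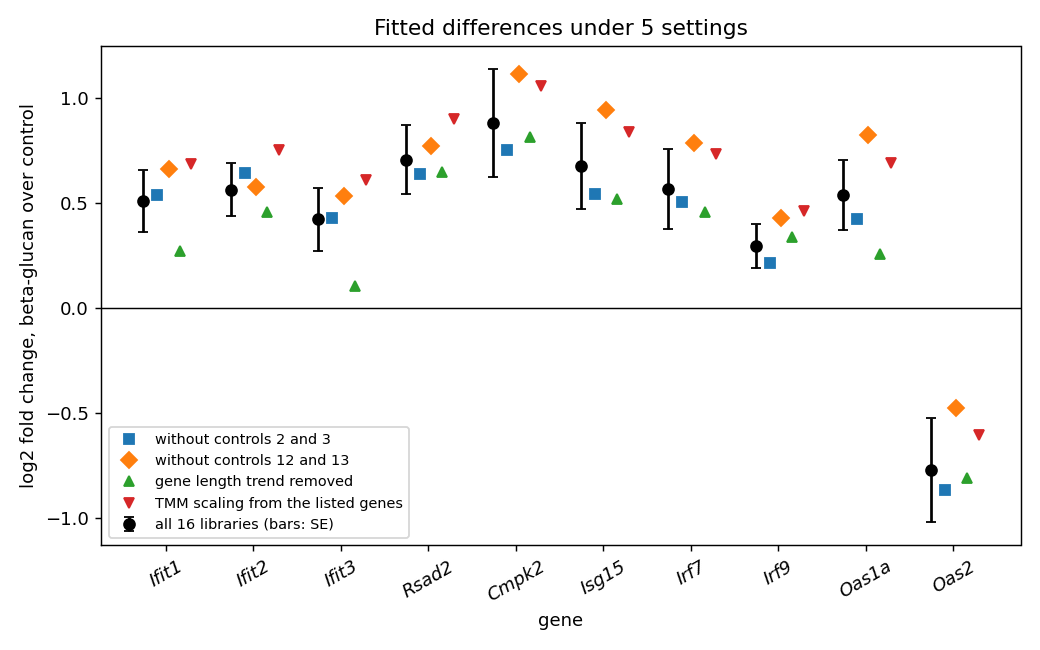
Log2 fold change of beta-glucan over control (y axis, edgeR) of the 10 genes with all 16 libraries (black, bars are SE) and under 4 other settings. All 9 higher genes stay above 0 and Oas2 below it, Ifit3 falls from 0.42 to 0.11 with the gene length trend removed, and Oas2 moves from -0.77 to -0.48 without controls 12 and 13.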

How the data were processed

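RNA sequencing was analysed from 16 libraries, 8 control and 8 beta-glucan, grouped by their labels. Build mm10, STAR 2.5, HTSeq 0.6.1, CASAVA and DESeq2 are named in the submitters' processing notes. The sources used here give no strand setting and no annotation release. The authors' read counts are raw. The deposited normalized counts, a signal, are those counts divided by 1 size factor per library. The deposited FPKM are the normalized counts per kilobase, scaled to 17937135 reads in every library. The authors' log2 fold changes and p-values cover 3071 genes, those with an adjusted p under 0.05 of 17130 tested. The deposited enrichment tables give p-values and gene counts per term.

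The 10 genes, the gene lists and the tests were chosen with earlier results of these data known. The rule for naming genes took all 10, every listed gene of the 10 pathway lists, and the 5 genes most alike within groups. edgeR 4.0.16 (glmQLFit, glmQLFTest, filterByExpr, two-sided, R 4.3.3) used the deposited size factors in place of factors computed from the listed genes, and p was adjusted over 17130 genes. The listed genes had already passed in the same data, so these tests are optimistic and serve as a description. The fit was tested on simulated counts. Correlations used log2(normalized count + 1) and exact permutation tests (scipy 1.17.1). Overlapping genes were read from GENCODE M21, which held all 3071 gene IDs, 2962 with the same start and end, and promoter sequences came from RefSeq. Alternatives were other scalings, DESeq2 1.42.0, no count filter, removal of the gene length trend, the replicate number as a block and leaving out libraries.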

Additional observations from a re-analysis of the deposited data

Results flagged for a closer look

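Rsad2 in beta-glucan 12 stood apart from its group. It had 867 normalized counts, and the gap to the next library was 0.538 of the range of the 8 beta-glucan libraries, above Dixon's critical value of 0.526. It was the only one of 20 groups of values examined (10 genes in control and in beta-glucan) to exceed it, and chance alone exceeds it in about 1 of 20.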

How the results depend on the processing

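Under the 25 alternatives tried for each of the 10 genes, 0 of 250 log2 fold changes reversed, 57 lost the edgeR call and 21 gained it. The number of the 10 genes called, 6 with all libraries, was 10 with DESeq2, 2 with the gene length trend removed and 1 without controls 2 and 3, and it was 2 to 8 when 1 library was left out. The number of listed genes called, 1882, was 2942 with DESeq2, 629 without controls 2 and 3 and 1150 to 2276 with 1 library left out (at most 1223 without control 2, 3 or 5 or beta-glucan 8), and the median log2 fold change of the 10 genes was 0.49 to 0.61. DESeq2 is named in the submitters' processing notes, and its fit here used the deposited size factors. It largely repeats the test that chose the list, so nothing is read from its counts. Leaving out libraries also lowers the number of samples, and the cause of these changes was not tested. The replicate numbers shared by both groups were not taken to pair the libraries, because the correlation of same-numbered deviations ran from -0.151 to 0.542 over 6 numbers (positive for 5, 7, 12 and 13) and 1 of 6 correlated best with its own number. The replicate block over the 12 libraries concerned gave 4 of the 10 genes and 355 listed genes. Without the block, a fit added after seeing the data, the same 12 libraries gave 1 and 68, fewer than with it. What the shared numbers stand for was not tested, and the main p-values take no account of them. The number of correlations passing, 1, was 0 with Spearman's rho, 0 without controls 2 and 3, 0 without controls 12 and 13, and 0 to 1 with 1 library left out. Of 176 correlations under alternatives 6 reversed. Irf7 with Ifit1 after beta-glucan was -0.00999 without the log and -0.183 to 0.290 with 1 library left out, and Ifit1 with Ifit3 after beta-glucan was -0.0846 to 0.359. Without controls 12 and 13, Irf7 with Irf9 was -0.132 and Oas1a with Oas2 -0.0908 in control. Only genes that had passed were in hand, so differences too small to pass at this depth, and the level of unlisted interferon genes, cannot be given.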
